A study of Mus musculus with 4 samples.

Results

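Immunoglobulin heavy chain mu RNA was abundant in mouse regulatory T cells, while RNA of heavy chain variable genes, light chains and the signalling partners of the B cell receptor was scarce. The account covers 8 genes of 50600 in the count tables: Ighm, Ighd and Igkc, which encode constant regions of antibody chains, Cd79a and Cd79b, which encode the signalling pair of the B cell receptor, and Pou2f1, Pou2f2 and Pou2af1, which encode octamer-binding factors and their coactivator. The 8 genes were chosen by the levels themselves, Ighm being high and light chain genes low in these same libraries, so their levels are a description and carry no test. All 8 were found by gene ID.

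RNA was sequenced in 4 libraries of primary regulatory T cells, the CD4+ cells that restrain immune responses, from C57BL/6NJ mice. They form 1 group in the labels, which number them as biological replicates 1 to 4, give them the same donor identifier, and record neither sex nor age. They link a protocol for the differentiation of CD4+ T cells and a library protocol named for polyA+ RNA, although the assay is called total RNA-seq. The words activated and 24h stand in the headers' output names. No other cell type and no untreated arm belongs to the series. The labels do not say which replicates came from separate animals or cultures, so part of the spread between libraries may be technical. Sex-linked genes, given below, show that the libraries did not all come from the same animal.

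An antibody heavy chain gene is put together in B cells by joining V, D and J segments of DNA, and the joined variable exon is spliced to the constant exons of Ighm and, in mature B cells, also to those of Ighd. Light chains come from a separate locus, and the membrane antibody reaches the surface together with the CD79A and CD79B chains. T cells join the segments of their own receptor loci in the same way. As background from earlier work, transcripts that start near the enhancer between the J segments and Ighm and carry no variable exon have been described in T cells as well as in B cells. POU2F1 is found in most cells, POU2F2 mainly in lymphocytes, and the coactivator encoded by Pou2af1 in B cells and activated T cells. All 3 act at the octamer, a motif of immunoglobulin promoters and of the heavy chain enhancer.

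The sequences below show which RNA the counts stand for. The first set gives the opening bases of the 3 antibody constant regions, in lower case throughout, from the GENCODE release 21 transcripts on GRCm38 (mm10).
Ighm, chr12:113422671-113422730, minus strand: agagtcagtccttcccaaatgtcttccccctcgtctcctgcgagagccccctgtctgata
Ighd, chr12:113416265-113416324, minus strand: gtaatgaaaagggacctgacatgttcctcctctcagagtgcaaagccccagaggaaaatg
Igkc, chr6:70726435-70726494, plus strand: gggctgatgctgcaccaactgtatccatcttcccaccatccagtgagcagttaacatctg
None of the windows of 50 bases in the annotated Ighm, Ighd or Igkc transcripts occurs on the same strand in a transcript of another gene (1837, 1850 and 483 windows). In Cd79a, 117 of 1408 such windows do, and in Cd79b 0 of 1382.

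The mu chain RNA has a secreted and a membrane-bound form that differ only at the end. The next set shows both coding ends, with the last 30 shared bases in lower case and the bases particular to each form in capitals, because the deposited counts add the forms together.
Ighm secreted end, chr12:113420870-113420958, minus strand: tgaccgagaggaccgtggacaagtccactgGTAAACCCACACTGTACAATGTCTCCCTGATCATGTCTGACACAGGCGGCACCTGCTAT
Ighm membrane end, chr12:113418829-113420958, minus strand, introns removed: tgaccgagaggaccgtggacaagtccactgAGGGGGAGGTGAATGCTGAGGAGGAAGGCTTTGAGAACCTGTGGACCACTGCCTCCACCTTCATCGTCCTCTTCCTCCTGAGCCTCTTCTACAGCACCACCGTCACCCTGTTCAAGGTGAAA
The 6 exon blocks counted for Ighm span 1886 bases and cover all annotated exons of both forms. Their shares of the Ighm level were not analysed here.

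The libraries held 38590127, 44357436, 48312918 and 93035969 fragments in replicates 1 to 4, so that a count of 0 allows up to 3 fragments, or 0.0777 to 0.0322 CPM, the count divided by library size. Levels are in TPM, which divides by gene length and then by the library's sum. Genes of the labelled cell type were present: all 13 T cell markers had a mean of at least 10 TPM, and their sum was 5669 to 6478 TPM. All 6 regulatory T cell markers reached 1 TPM, against 47.7% of protein-coding genes, with Foxp3 at 101, 92.95, 125 and 115 TPM. Replicate 1 stood apart by an rRNA-related feature, Gm42418, at 35490.5 TPM against 1324 to 3197 in the others, which lowers the TPM of other genes in that library. Listed from replicate 1 to 4, the level of Xist was 100.4, 88.7, 0.716 and 0.603 TPM, while that of the Y-linked gene Ddx3y was 0.159, 0.101, 46.1 and 40.6 TPM. Eif2s3y, also Y-linked, had 0.0596, 0.145, 42.4 and 49.3 TPM. High Xist with low Y-linked genes is the pattern of female cells, and the reverse that of male cells. The libraries therefore did not all come from the same animal. The labels give all 4 libraries the same donor identifier and do not mark this difference between them.

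Ighm (ENSMUSG00000076617.9, chromosome 12, 113418558 to 113422730, minus strand) reached 288, 340, 352 and 331 TPM across replicates 1 to 4, from 6576, 8505, 9313 and 17211 fragments. Its mean was 328 ± 27.6 TPM (SD, n = 4), the highest of the 8 genes in every library, and the lowest library was 1.22 times below the highest. Among 21785 protein-coding and antigen receptor constant genes Ighm ranked 502 by mean TPM, and between 486 and 544 in single libraries. Replicate 1 was the lowest library. With features under 200 bp and rRNA left out of the TPM sum it came to 320 TPM against 336 to 357 in the others. In bulk RNA, many cells with a little of this RNA and few cells with much of it cannot be told apart.

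**Figure D1:**
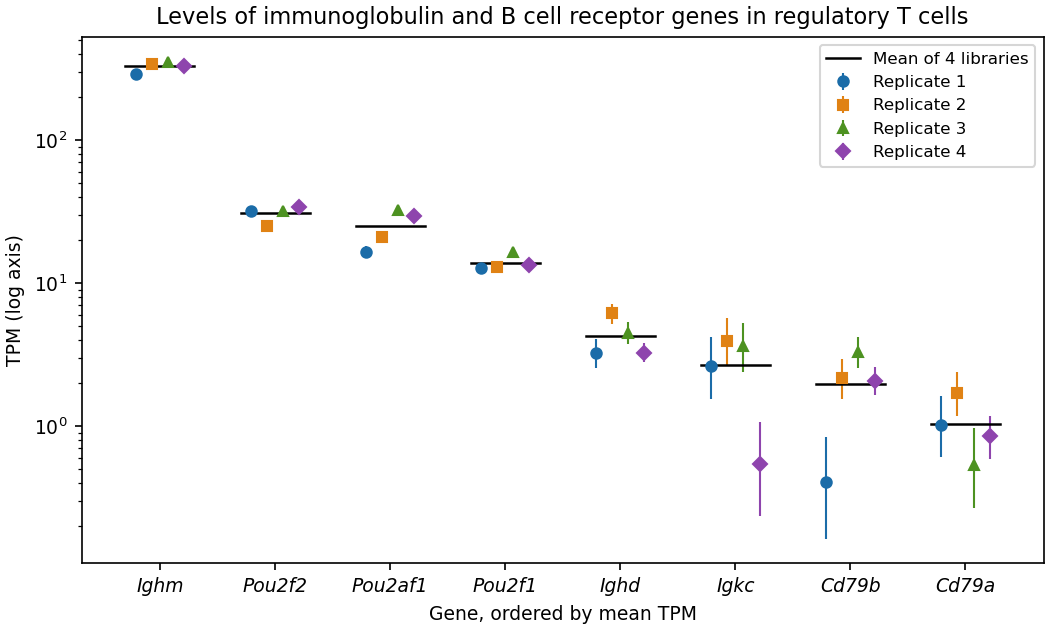
TPM on a log axis of the 8 genes in each of the 4 libraries, with exact 95% Poisson intervals that cover counting error only and the mean of the libraries as a black line. Ighm lies at 288 to 352 TPM, the 3 octamer factor genes between 12.7 and 34.1, and Ighd, Igkc, Cd79b and Cd79a between 0.405 and 6.14.

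Constant regions of the T cell's own receptor gave the scale. Trac, the constant gene of the receptor alpha chain, averaged 1436 ± 156 TPM, Trbc1 434 ± 21.9 and Trbc2 606 ± 58.9 (SD, n = 4). Per length, Ighm was 0.207 to 0.242 times Trac, 0.71 to 0.793 times Trbc1 and 0.484 to 0.594 times Trbc2. It stood at 2.81 to 3.65 times Foxp3. Trbc1 and Trbc2 are near-identical copies, and 283 windows of 50 bases in each occur in another gene, so their levels are uncertain.

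The genes closest to Ighm in level were sought among 21764 protein-coding genes by the root mean square difference of log2(TPM + 1) over the 4 libraries. They included Tipin (difference 0.043, mean 324 TPM), a replication fork protein, Clta (0.043, 323 TPM), a clathrin light chain, Ganab (0.054, 336 TPM), a glucosidase of the endoplasmic reticulum, and the mitochondrial ribosomal protein gene Mrpl18 (0.055, 324 TPM). This measure compares levels, and says nothing of shared control.

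Along the heavy chain locus nearly all constant region fragments lay on Ighm. It held 98.8%, 98.1%, 98.6% and 98.8% of the fragments on the 8 heavy chain constant genes in replicates 1 to 4 (exact 95% binomial intervals within 97.8 to 99.1). Ighd, the next constant gene in the direction of transcription, had 75, 155, 120 and 171 fragments, or 3.26, 6.14, 4.50 and 3.26 TPM. Its mean was 4.29 ± 1.36 TPM, and Ighm was 55.3 to 101 times higher per length. Ighg3, the first gamma constant gene, had 3, 13, 13 and 35 fragments, or 0.229 to 1.17 TPM. Beyond it, Igha and Ighg2b had 3 fragments each, all in replicate 4, Ighg1 had 1 fragment in replicate 1, and Ighg2c and Ighe had 0 in all 4 libraries. Of the 8 genes, 2 had a mean of at least 1 TPM and 2 had no fragment, while 47.7% of 21764 protein-coding genes reached 1 TPM.

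**Figure D2:**
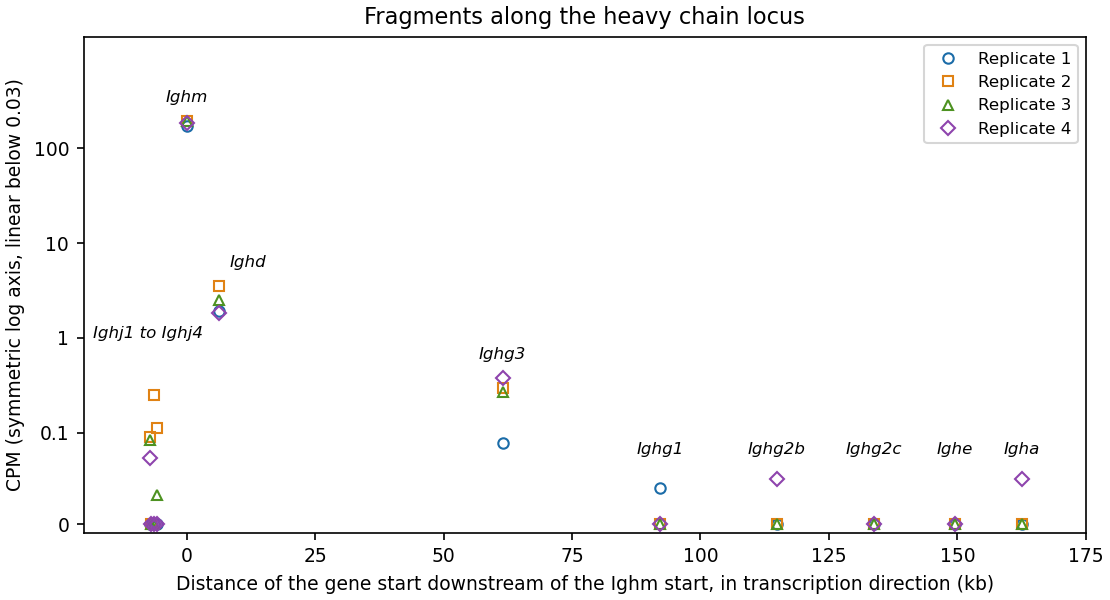
CPM of the J segments and constant genes of the heavy chain locus in each library, against the distance of each gene's start from the Ighm start in kb, counted positive in the direction of transcription. The CPM axis is logarithmic above 0.03 and linear below. Ighm stands at 170 to 193 CPM, Ighd at 1.84 to 3.49, and no other gene shown reaches 0.5 CPM.

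Between the J segments and Ighm the tables hold 4 short features typed as miRNA genes on the same strand. Gm22175, which starts 2.5 kb upstream of Ighm, had 19, 0, 11 and 18 fragments, and Gm25747 had 0, 3, 8 and 0, while both rows named Gm24022 had 0. These 2 genes were chosen after their values were seen. They are 78 bp long, shorter than a usual fragment, and the exons counted for Ighm do not reach them.

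Heavy chain variable genes were nearly silent beside Ighm. Over 113 Ighv genes together there were 5, 4, 11 and 0 fragments in replicates 1 to 4, and 3 of the genes had any. These were Ighv1-82 with 5 fragments in replicate 1, Ighv1-39 with 4 in replicate 2 and Ighv14-2 with 11 in replicate 3, each in that library alone and each chosen after its values were seen. As a share of Ighv, Ighm and Ighd fragments, Ighv made up 0.0751%, 0.0462% and 0.116% in replicates 1 to 3, with exact 95% binomial intervals within 0.0126 to 0.208%. Replicate 4 had 0 of 17382, where the limit of 3 fragments is 0.0173% and the exact 95% interval reaches 0.0212%. The 4 Ighj segments had 0, 20, 5 and 5 fragments and the 19 heavy chain D segments 5, 1, 0 and 0, and no V, D or J segment of the antibody loci had 10 fragments in every library.

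The T cell receptor chains, counted in the same libraries by the same rules, looked different. The 108 Trav genes had 2836, 3385, 3261 and 5996 fragments, which is 16.9%, 16.2%, 14.2% and 12.7% of Trav and Trac fragments. The 22 Trbv genes had 2922, 3891, 4238 and 7716 fragments, which is 26.1%, 29.0%, 28.2% and 25.7% of Trbv, Trbc1 and Trbc2 fragments. The lowest share of either receptor chain, 12.7%, stood far above the highest Ighv share, 0.116%, with no overlap in any library. Fragments that overlap a variable and a constant gene at once were not counted for either, and neither were those that align to several places. Of windows of 50 bases in Ighv transcripts 24.9% occur in another gene, against 64.2% in Trav and 6.45% in Trbv. The part of shared sequence in these counts was not tested.

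**Figure D3:**
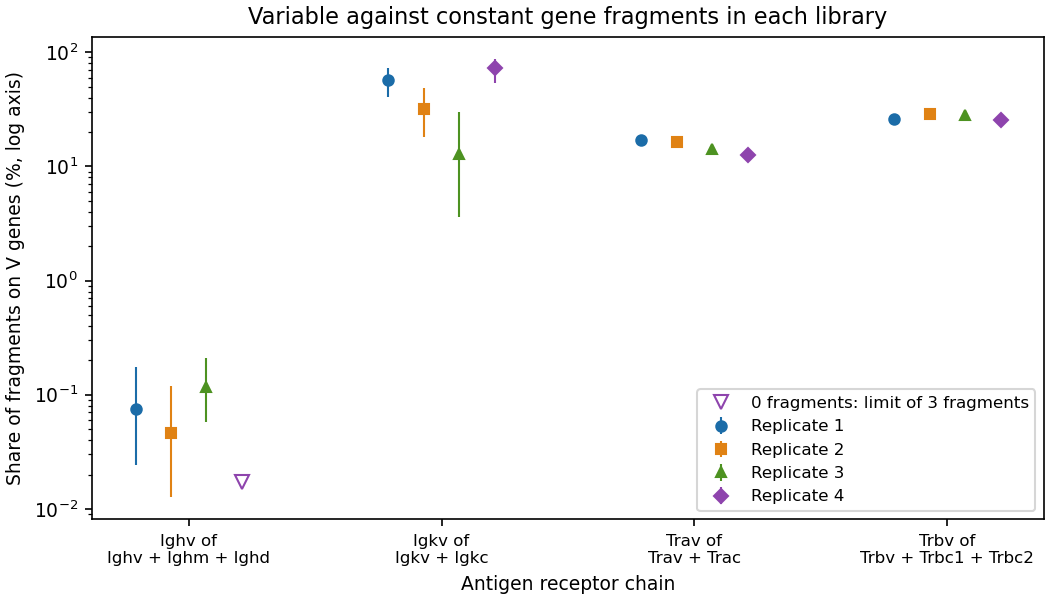
Share of fragments on variable genes among variable and constant gene fragments of each antigen receptor chain, in percent on a log axis, per library with exact 95% binomial intervals. Ighv shares lie at or below 0.116%, with the library at 0 fragments drawn at its limit of 0.0173%, while Trav and Trbv shares lie between 12.7% and 29.0% and Igkv shares scatter from 12.9% to 73.3% on few fragments.

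Light chain RNA was low and uneven. Igkc, the kappa constant gene (ENSMUSG00000076609.2, chromosome 6, 70726435 to 70726966, plus strand), had 17, 28, 27 and 8 fragments, or 2.64, 3.96, 3.62 and 0.545 TPM. The deepest library, replicate 4, was the lowest: its exact 95% Poisson interval was 0.236 to 1.07 TPM, below the intervals of the other 3 libraries, which began at 1.54 TPM or higher. Ighm was 109, 85.7, 97.3 and 607 times Igkc per length. While Igkc varied 7.27 times between libraries on 8 to 28 fragments, Ighm varied 1.22 times on 6576 to 17211. The Poisson intervals cover counting error only. In the edgeR test of variation described below, run without its filter on low counts, Igkc was not called (adjusted p = 0.961). The mean of Igkc was 2.69 ± 1.54 TPM (SD, n = 4).

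Other light chain genes lay at or near 0. Of the 4 lambda constant genes Iglc3 had 7, 3, 0 and 0 fragments, and Iglc1, Iglc2 and Iglc4 had 0 in all libraries. The 100 Igkv genes had 23, 13, 4 and 22 fragments in total, and the 3 Iglv genes had 3 in all. The surrogate light chain gene Vpreb1, which serves the receptor of precursor B cells, had 14, 28, 9 and 2 fragments, or 1.04, 1.89, 0.576 and 0.0652 TPM. Its relatives Igll1 and Vpreb2 had 0 fragments and Vpreb3 had 1.

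The signalling pair of the B cell receptor was near 1 TPM. Cd79a (ENSMUSG00000003379.7, chromosome 7, 24897381 to 24902197, plus strand) had 18, 33, 11 and 34 fragments, or 1.02, 1.71, 0.538 and 0.847 TPM, with a mean of 1.03 ± 0.494. Cd79b (ENSMUSG00000040592.11, chromosome 11, 106311341 to 106314762, minus strand) had 7, 41, 66 and 82 fragments, or 0.405, 2.16, 3.29 and 2.08 TPM, with a mean of 1.98 ± 1.19. The pair did not follow each other: replicate 3 was highest for Cd79b and lowest for Cd79a. Ighm was 199 to 654 times Cd79a and 107 to 713 times Cd79b per length.

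Downstream of the receptor, levels were mixed. Of 20 signalling genes 10 had a mean of at least 1 TPM and 7 of at least 10, while 47.7% of protein-coding genes reached 1 TPM. Vav1, an exchange factor used by both antigen receptors, had 215 ± 9.17 TPM, the adaptor Grb2 132 ± 6.17, Cd72 54.0 ± 6.05 and the ubiquitin ligase Cblb 31.5 ± 2.66. Btk, a kinase of B cells, had 1.30 to 1.63 TPM, the kinase Syk 0.105 to 0.168, the adaptor Blnk 0.127 to 0.339 and the kinase Lyn 0.0370 to 0.367, and Fcgr2b had 0 fragments. The kinase gene Prkcb had a mean of 26.5 TPM, the phospholipase gene Plcg2 17.3 and the adaptor gene Dapp1 11.6. Btk, Syk, Blnk, Lyn, Prkcb, Plcg2 and Dapp1 were chosen after their values were seen.

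Markers of B cells were measured beside Ighm. Of 14 markers 3 had a mean of at least 1 TPM, against 47.7% of protein-coding genes. These were Cd72 at 54.0 ± 6.05, the BAFF receptor gene Tnfrsf13c at 9.25 ± 1.91 and the IgM Fc receptor gene Fcmr at 3.72 ± 0.531. The summed level of the 14 was 63.3, 69.2, 75.5 and 69.2 TPM in replicates 1 to 4, of which Cd72 made up most: without it the sum was 16.3, 17.5, 14.4 and 12.7 TPM. Other defining markers were low in every library. The lineage factor genes Pax5 and Ebf1 had 0.111 to 0.197 and 0 to 0.0463 TPM, Ms4a1, which encodes CD20, 0.0134 to 0.146 TPM and Cd22 0 to 0.119 TPM. Of these, Ms4a1, Pax5 and Cd22 were chosen after their values were seen. Among the 11 markers under 1 TPM, others were higher, such as Spib with a mean of 0.539 TPM, Fcer2a with 0.396 and Blk with 0.212. Ms4a1, Pax5, Ebf1 and Cd22 together summed to 0.278, 0.422, 0.194 and 0.268 TPM. The sum of all 14 was highest in replicate 3, as was Ighm, the sum of these 4 was lowest there, and the sum without Cd72 was lowest in replicate 4. In replicate 3 Ms4a1, Pax5, Ebf1 and Cd22 had only 3, 18, 2 and 0 fragments. These orders of the libraries were not tested.

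**Figure D4:**
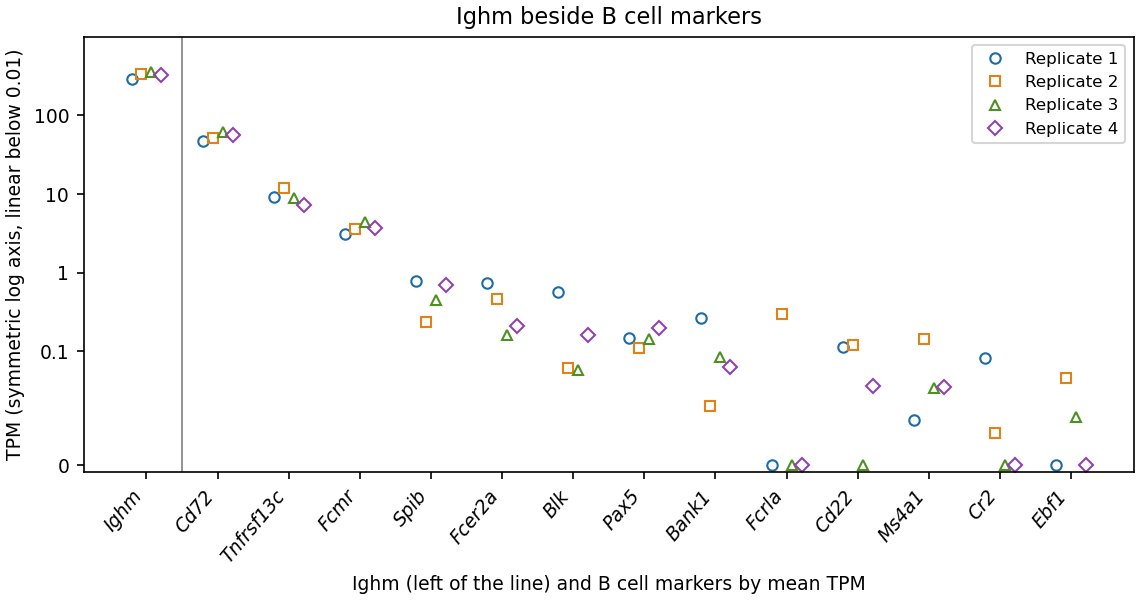
TPM of Ighm, left of the line, and of 13 B cell markers in each library, on an axis that is logarithmic above 0.01 and linear below. Ighm stands at 288 to 352 TPM, Cd72 at 47.0 to 61.0, and 10 of the markers drawn have means below 1 TPM.

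Markers of other cells that can carry these RNAs were checked as well. For scale, 47.7% of protein-coding genes reached 1 TPM. Of 8 plasma cell markers Tnfrsf13b (97.2 ± 9.73 TPM), Xbp1 (95.8 ± 6.24) and Sdc1 (4.16 ± 0.755) reached 1 TPM, Derl3 had 0.98 ± 0.567, and the joining chain gene Jchain and Tnfrsf17 had 0 fragments. Of 9 plasmacytoid dendritic cell markers Irf8 (957 ± 16.3 TPM), Bst2 (238 ± 14.3) and Ly6d (6.02 ± 1.25) reached 1 TPM, and the defining gene Siglech, with Klk1 and Cox6a2, had 0 fragments. As background, Irf8, Xbp1 and Bst2 are also expressed in T cells, and which cells gave these RNAs here was not tested. Of 8 myeloid markers Adgre1 alone reached 1 TPM, and Lyz2 and Spi1 had 0 fragments. The myeloid sum was 1.51 to 2.93 TPM, the plasma cell sum 185 to 211, the plasmacytoid sum 1183 to 1223, and the NK sum 97.7 to 106, of which Nkg7 (101 ± 3.64 TPM) made up nearly all and Ncr1 and Klra8 none. The part of any such cells in the levels of the 8 genes was not tested.

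The octamer factors formed the middle of the order. Pou2f2, which encodes OCT2 (ENSMUSG00000008496.19, chromosome 7, 25087344 to 25179726, minus strand), had 32.0, 25.2, 32.0 and 34.1 TPM, with a mean of 30.8 ± 3.88. Pou2af1, which encodes the coactivator OCA-B (ENSMUSG00000032053.8, chromosome 9, 51213708 to 51240080, plus strand), had 16.6, 21.1, 32.6 and 29.4 TPM, with a mean of 24.9 ± 7.36. Pou2f1, which encodes OCT1 (ENSMUSG00000026565.18, chromosome 1, 165865154 to 166002678, minus strand), had 12.7, 12.9, 16.5 and 13.3 TPM, with a mean of 13.9 ± 1.80 (SD, n = 4 for each). Pou2f1 has an exon union of 16597 bases, the longest of the 8, so its 2545 to 6085 fragments give a low level per length.

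The order of the 8 genes by mean level had 3 clear steps. Ighm stood above Pou2f2 and Pou2f1 above Ighd with ranges over the 4 libraries that did not overlap, as did Pou2af1 above Pou2f1, whose ranges came within 16.6 and 16.5 TPM of each other. Pou2f2 and Pou2af1 overlapped, Pou2f2 being higher in 3 of 4 libraries. Ighd was above Igkc, Cd79b and Cd79a in each of the 4 libraries, although its range of 3.26 to 6.14 TPM overlapped those of Igkc and Cd79b. Igkc was above Cd79b, and Cd79b above Cd79a, in 3 of 4 libraries with ranges that overlapped.

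Other POU genes were absent or rare. Of 13 genes of the family and its coactivator 3 reached 1 TPM, which were the 3 members, against 47.7% of protein-coding genes. Another 7 had 0 fragments in all libraries, among them Pou2f3, the remaining class 2 gene, and Pou5f1, the pluripotency factor gene. Pou6f1 had 0.81 ± 0.244 TPM. The genes nearest to Pou2f1 in level over the 4 libraries were Map3k2 (root mean square difference 0.026, mean 13.8 TPM), a kinase of the MAP kinase cascade, the phosphatase gene Ptpn4 (0.028, 13.9 TPM) and Hcfc2 (0.038, 13.8 TPM).

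Pou2af1 was the least even of the 3 octamer factor genes, with a coefficient of variation of 29.5%, and Ighd, counted from fewer fragments, had 31.8%. Replicates 3 and 4 lay above replicates 1 and 2, at 32.6 and 29.4 TPM against 16.6 and 21.1. The exact 95% Poisson intervals of the pairs, 28.1 to 34.5 and 15.2 to 22.7 TPM, did not meet. These intervals cover counting error only, and all pairs of libraries differed beyond it. How many other genes split the libraries in this way was not counted. The same pairs of libraries were set apart by Xist and Ddx3y, and replicate 1 also by its rRNA-related feature. The part of either in the level of Pou2af1 was not tested. With rRNA and short features left out of the TPM sum the 4 values were 18.5, 21.7, 33.1 and 29.8.

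**Figure D5:**
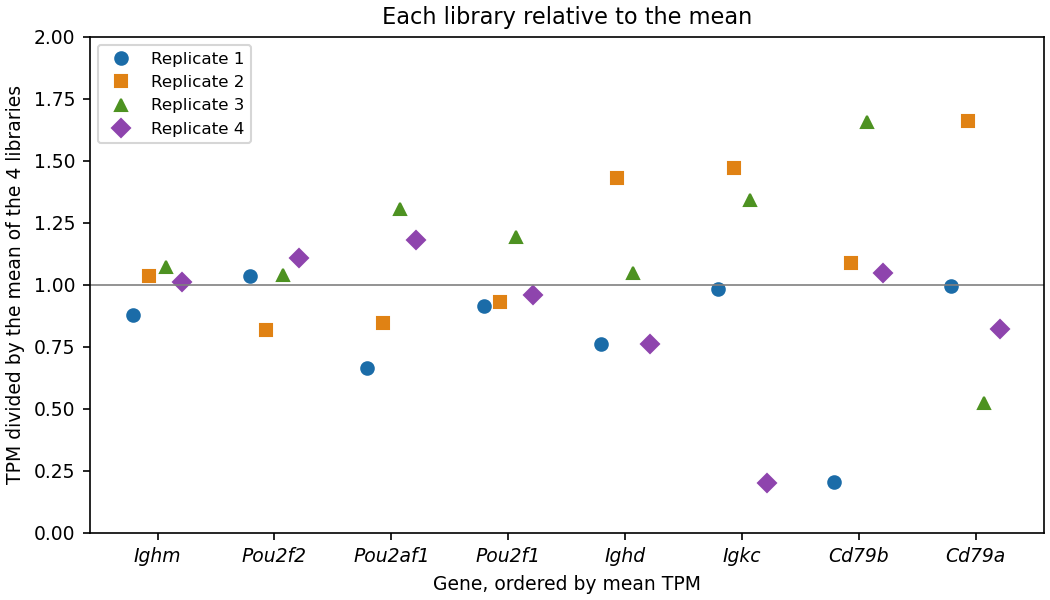
TPM of each library divided by the mean of the 4 libraries, for each of the 8 genes ordered by mean TPM. Ighm stays close to 1, Pou2af1 has replicates 1 and 2 below 1 and replicates 3 and 4 above, and the genes with few fragments, Igkc, Cd79b and Cd79a, scatter most, with replicate 4 lowest for Igkc and replicate 1 lowest for Cd79b.

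Whether the genes varied between libraries more than genes of like abundance was tested with edgeR's quasi-likelihood dispersion over all genes that passed its filter on low counts. Of the 8 genes 6 passed the filter, and Igkc and Cd79b did not. None of the 6 varied at a Benjamini-Hochberg adjusted p of 0.05, against 58 of 12396 genes (0.468%). At an unadjusted p under 0.05 there were 2 of the 6, and 661 of the 12396. Ighm had a dispersion of 0.604 times that of genes of like abundance (adjusted p = 0.997). Pou2af1 had 8.81 times (adjusted p = 0.0748) and Pou2f2 5.32 times (adjusted p = 0.517). Pou2af1 passed without replicate 2 (adjusted p = 0.00205) and without the filter (0.00445), and DESeq2 marked its dispersion as an outlier, so its call depends on the setting.

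Factors known to bind the enhancer between the J segments and Ighm were largely present. Of 18 listed factor genes 13 had a mean of at least 1 TPM and 12 of at least 10, with a list median of 28.6 TPM. Of protein-coding genes 47.7% reached 1 TPM, and their median was 0.52. The list was chosen with earlier results of these data known, so this difference carries no test. Binding at the enhancer was not measured. Irf8 had 957 ± 16.3 TPM, Irf4 731 ± 42.4, the Ikaros gene Ikzf1 379 ± 28.4 and Ets1 253 ± 17.6. Tcf3, which encodes E2A, had 213 ± 19.7 TPM and Yy1 139 ± 8.62, both chosen after their values were seen. The 5 under 1 TPM were Spi1, which encodes PU.1, with 0 fragments, Spib with 0.236 to 0.779 TPM, the E protein gene Tcf4 with a mean of 0.461 TPM, and Pax5 and Ebf1, whose values stand above. Spib and Tcf4 were chosen after their values were seen. Of the 15 genes tested for variation between libraries 0 passed, against 58 of 12396 (0.468%) over all genes tested. With so low a share, 0 of 15 says little of these genes.

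Recombinase genes were at or near 0 and genes of DNA end joining and repair were expressed. Of 12 genes of V(D)J recombination and class switching 8 reached 1 TPM, against 47.7% of protein-coding genes. The highest were the end-joining genes Xrcc5 (133 ± 13.4 TPM) and Xrcc6 (99.4 ± 6.12), the uracil glycosylase gene Ung (60.3 ± 2.42) and Prkdc (13.4 ± 2.09). Rag2, a subunit of the recombinase, had 0 fragments in all libraries. Rag1, the other recombinase subunit, had 6, 8, 10 and 40 fragments, or 0.0751 to 0.220 TPM, and Dntt 0.212 to 0.777 TPM, both chosen after their values were seen.

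The octamer was searched in promoter windows of 300 bases from RefSeq (GRCm38.p6), as ATGCAAAT or its reverse complement ATTTGCAT. Of the 8 genes Cd79a, Pou2af1, Pou2f1 and Pou2f2 have windows in the table, and none of their 6 windows held an exact match, against 1.74% of 32851 windows. The closest match, with 1 letter different, lay in the Pou2af1 window 232 bases before the start. Of all windows 18.6% hold a match as close. It is shown with the Cd79a match, which has 2 letters different, the matched bases in capitals.
Pou2af1, chr9:51213442-51213481, plus strand: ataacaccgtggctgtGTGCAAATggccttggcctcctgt
Cd79a, chr7:24897368-24897407, plus strand: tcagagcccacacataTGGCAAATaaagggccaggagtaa
A match as weak as that of Cd79a is held by 77.5% of windows. The matches are letters in a reference sequence, and no binding was measured.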

How the data were processed

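The authors counted read pairs with both ends mapped over exons of GENCODE mouse release 13 with featureCounts 1.4.6-p4 and strand setting 2, per the file headers. The deposited values are raw fragment counts per gene, with exon union lengths in bp, on mm10 per the labels. Of the aligner, the headers show only a tag within an input name. The headers ask neither for reads that align to several places nor for reads that overlap several genes. Symbols came from GENCODE release 21 (50376 of 50600 IDs matched).

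TPM was computed from counts and lengths (Python 3.11.15, pandas 2.3.3). For variation, genes kept by filterByExpr were scaled by TMM and fitted with a mean alone by edgeR 4.0.16 (R 4.3.3), using its quasi-likelihood method and robust prior. Each gene's dispersion over its prior was tested in the upper F tail, with Benjamini-Hochberg adjustment at 0.05. The p-values speak of spread among these 4 libraries alone. DESeq2 1.42.0 gave size factors and dispersion outliers. Run on 12396 genes of simulated data in which 1 library was altered, the test recovered 79 of 100 genes changed by 2 times and 100 of 100 changed by 4 times, and called 4 unchanged genes.

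The genes and lists were chosen with earlier results of these data known. Named are the 8 genes, in each list the 4 highest by mean TPM and the lowest where under 1 TPM, markers of B, plasma and plasmacytoid dendritic cells at 1 TPM or more, the 5 genes nearest to Ighm and 3 nearest to Pou2f1, and those said to be chosen later. Some genes under this rule are not reported here. Intervals are exact at 95% and reflect counting error alone. All pairs of libraries differed beyond sampling noise (chi-square over degrees of freedom 13.0 to 151 for 6 pairs).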

Additional observations from a re-analysis of the deposited data

Results flagged for a closer look

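In 33 sets of 4 library values, the gap of the extreme library to its nearest neighbour was divided by the range and held against Dixon's 95% critical value, and 2 sets passed it. Chance gives about 1 in 20. Pou2f1 had 16.5 TPM in replicate 3, while the others lay at 12.7 to 13.3 TPM (gap over range 0.839). The log2 ratio of Ighm to Igkc was 9.25 in replicate 4 (gap over range 0.877), the library with 8 Igkc fragments.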

How the results depend on the processing

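No paired analysis was possible because the labels give 1 group. Depth limits the low genes: Igkc, Cd79a and Cd79b rest on 7 to 82 fragments a library. Other denominators of TPM raised the means of the 8 genes by 2.24 to 6.13%, within 1 SD. FPKM, another unit, put the means with TMM and with DESeq2 scaling at 98.1 and 98.0 for Ighm, 1.28 and 1.28 for Ighd, 0.805 and 0.804 for Igkc, 0.309 and 0.309 for Cd79a, 0.584 and 0.584 for Cd79b, 7.43 and 7.42 for Pou2af1, 4.15 and 4.14 for Pou2f1, and 9.27 and 9.26 for Pou2f2. Without division by length the log2 ratio of Ighm was 9.09 to Igkc, 3.33 to Pou2af1, 1.43 to Pou2f1 and 1.29 to Pou2f2, as set by gene length. The B cell sum without Cd72, chosen after seeing the data, averaged 15.3 TPM, against 69.3 with it.

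The count of varying genes, 58, was 110 without the filter on low counts, 36 without the robust prior, 94 by DESeq2's dispersion outliers and 37 to 69 with a replicate left out. The count among the 8 genes was 1, Pou2af1, without the filter and by DESeq2, and 0 to 1 with a replicate left out. The adjusted p of Pou2af1 was 0.00205 to 0.495 over those. The cause was not tested.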
